A study of Mus musculus with 8 samples.

Results

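Fabp4, a small cytosolic carrier of fatty acids, and 8 genes that take up, carry, store or regulate fatty acids were followed in tissue on either side of the aorta in mouse embryos. The members were listed by symbol: Cd36, Lpl and Gpihbp1 for uptake, Fabp3, Fabp4 and Fabp5 for binding, Plin2 for storage, and the transcription factors Pparg and Cebpa. Of these 9 genes, 8 have a row among the 24675 genes with a symbol, and Fabp3 was not analysed here. Fabp4 was selected on its ventral minus dorsal difference in these same arrays, so that difference is given as a description, without a test. The other members were listed for their function, with earlier results of these data known, and the question is whether they go with Fabp4.

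Fatty acids reach tissues largely inside lipoprotein particles. Lipoprotein lipase, made by Lpl and held on the capillary wall by the protein of Gpihbp1, frees them, and the scavenger receptor CD36 helps them into cells. Inside the cell, fatty acid binding proteins carry them, perilipin 2 coats the lipid droplets in which they are stored, and PPAR gamma and C/EBP alpha switch on much of this programme in adipocytes. Fabp4 is best known from adipocytes, but is also made by capillary endothelium and by macrophages.

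All samples came from untreated embryos of the strain C57Bl/6 at embryonic day 12.5, with no genetic change named. The ventral group is tissue beneath the aorta, and the dorsal group is tissue above it, reaching from its roof to the notochord. Both were cut by laser from 20 µm frozen sections of the same embryos, and 200 to 1000 pg of RNA was amplified and measured on an Affymetrix mouse gene array, with 4 arrays per tissue. A microdissected piece holds several cell types, and in such bulk samples fewer cells of a type and less RNA per cell cannot be told apart. Values are log2 intensities, differences are ventral minus dorsal, and arrays of both tissues that carry the same replicate number are compared with each other. The precision is limited by the number of arrays. The array medians over all rows lay between 3.59 and 3.65, and a gene was tested if it exceeded its array's median on at least 4 of 8 arrays, as 12416 genes did.

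Markers set some arrays apart, and this bears on several members. The mean of 12 liver genes was 7.07 in dorsal replicate 4 and 5.02 in ventral replicate 4, against 3.15 to 3.28 on the other 6 arrays. Red cell genes were also highest in dorsal replicate 4, with a mean of 8.43 over 10 genes and 6.47 to 7.37 elsewhere. Neural genes were highest in dorsal replicate 1, at a mean of 6.17 over 12 genes. Ventral replicates 1 and 3 came next, at 5.03 and 4.90, against 3.66 to 4.14 on the remaining arrays. Cartilage and sclerotome genes, expected near the notochord, were higher in all 4 dorsal arrays (means of 12 genes from 5.67 to 6.80) than in the ventral ones (4.36 to 4.61). This list was chosen with earlier results of these data known, so it is no independent check of the labels.

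Fabp4 stood at 4.63, 5.21, 4.05 and 6.42 in dorsal replicates 1 to 4 and at 8.85, 7.85, 8.76 and 8.31 in the ventral ones. Every ventral array was above every dorsal array, and the ventral values were close together while dorsal replicate 4 was well above the other dorsal arrays. The dorsal mean was 5.08 ± 1.01 and the ventral mean 8.44 ± 0.46 (SD, n = 4), which are 3.36 apart (SE 0.46), or 10.3-fold. Within the replicate numbers the difference was 4.22, 2.64, 4.70 and 1.89. Only 2 of the 12416 tested genes had a greater ventral excess. Leaving out replicate number 4 gave 3.85 and leaving out number 3 gave 2.91, the highest and lowest values with 1 number left out.

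**Figure D1:**
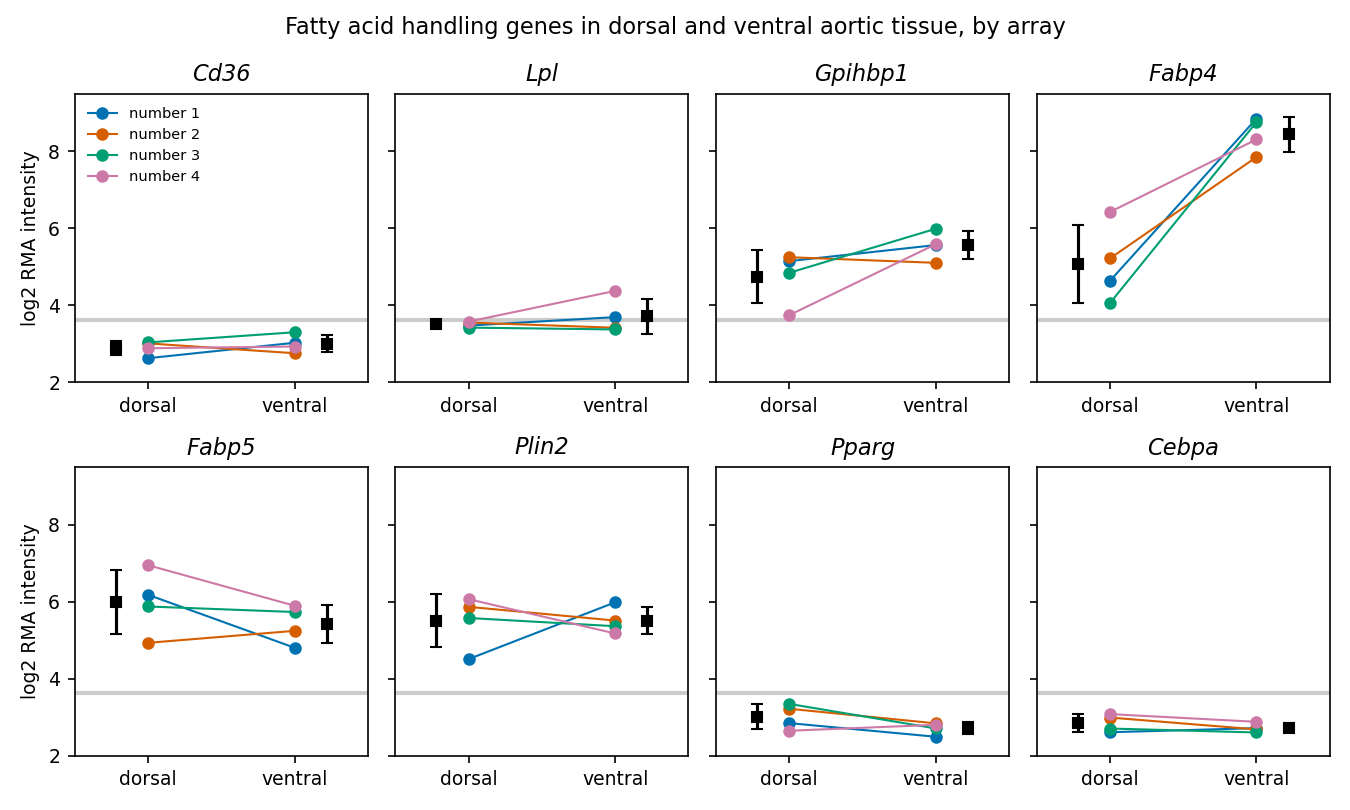
Log2 RMA intensity (vertical axis) of the 8 measured members on each array, with dorsal and ventral arrays of 1 replicate number joined by a line, black squares for the mean with its SD, and a grey band for the range of the array medians (3.59 to 3.65). Fabp4 is the member whose ventral arrays (7.85 to 8.85) all lie above its dorsal arrays (4.05 to 6.42). Cd36, Pparg and Cebpa lie under the band on every array.

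In the fit across all genes, blocked by replicate number, limma made a call for 0 of the 3 other members that passed the filter (Gpihbp1, Fabp5 and Plin2) at an adjusted p under 0.05. It called 0 of 12416 genes in all (0%), so no member had a call to share. Without the replicate number as a block it called 4 genes (0.0322%), none of them a member. At an unadjusted p under 0.05 there was 1 of the 3 members, Gpihbp1, where 8.26% of all tested genes reached that level, and the same 1 without the block, where 7.99% did. The sign was the same in all 4 replicate numbers for Fabp4 alone of the 8 members, higher in each, as in 7.93% of tested genes, while 8.46% were lower in each. Cd36, Lpl, Pparg and Cebpa did not pass the filter on low values and are described without a test. Fabp4 was the 1 member of 8 whose arrays did not overlap between the tissues, as in 4.39% of tested genes, but it had been chosen for that contrast.

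Gpihbp1, the capillary anchor of lipoprotein lipase, had a higher mean in ventral tissue. It stood at 5.15, 5.25, 4.84 and 3.74 in dorsal and at 5.56, 5.10, 5.99 and 5.59 in ventral replicates 1 to 4. The ranges overlapped slightly, and dorsal replicate 4 was far below the other dorsal arrays. The difference was 0.82 (SE 0.33, 95% interval 0.05 to 1.58), or 1.76-fold, higher in 3 of 4 replicate numbers, and did not pass limma's test (unadjusted p = 0.0403, adjusted p = 0.579). Without replicate number 4 it was 0.47, and over all alternatives its adjusted p was at least 0.495. The mean of 16 endothelial genes was likewise lowest in dorsal replicate 4, at 4.15 against 4.63 to 5.09 in the other dorsal arrays. That mean lay between 4.64 and 5.03 in ventral tissue, and its part in the value of Gpihbp1 was not tested.

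Lpl, the lipase itself, stayed near the array medians in both tissues. Its dorsal values were 3.47, 3.55, 3.42 and 3.57, and its ventral values 3.69, 3.41, 3.37 and 4.37. Only ventral replicates 1 and 4 exceeded their array's median, and replicate 4 accounts for most of the mean difference of 0.21, which became -0.012 without that array. Liver genes were high in ventral replicate 4 (mean 5.02) and highest in dorsal replicate 4 (mean 7.07), where Lpl was 4.37 and 3.57. Whether the liver signal moves Lpl was not tested.

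Cd36, the membrane receptor that aids fatty acid uptake, lay under the array median on all 8 arrays. Its values were 2.62, 3.01, 3.03 and 2.88 in dorsal and 3.02, 2.75, 3.30 and 2.93 in ventral tissue. The groups overlapped and the means, 2.89 ± 0.19 and 3.00 ± 0.23 (SD, n = 4), were 0.11 apart. At such values background limits any difference, so this is no measure of how alike the tissues are.

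Fabp5, the epidermal-type binding protein, pointed the other way from Fabp4. Dorsal replicates 1 to 4 stood at 6.18, 4.93, 5.88 and 6.95, and ventral replicates at 4.80, 5.24, 5.73 and 5.90. The groups overlapped widely, with the highest value in dorsal replicate 4. The difference was -0.57 (SE 0.30, 95% interval -1.28 to 0.15), lower in 3 of 4 replicate numbers, and did not pass limma's test (adjusted p = 0.705). Without dorsal replicate 4 it was -0.24 in the fit without a block. With dorsal replicates 1 and 4 both left out, an alternative chosen after the data were seen, it was 0.015. Neural and liver genes stood high on those arrays, and their part in Fabp5 was not tested.

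Plin2, the droplet coat protein found in most cells that hold lipid, did not differ on average. It stood at 4.51, 5.87, 5.58 and 6.07 in dorsal and at 5.98, 5.51, 5.36 and 5.17 in ventral tissue. Dorsal replicate 1 was the lowest of the 8 arrays, and replicate number 1 alone was higher in ventral tissue, by 1.48. The mean difference was 0.0034 (SE 0.37, 95% interval -0.87 to 0.88, adjusted p = 0.998 in limma). Without replicate number 1 it was -0.49 (adjusted p = 0.666). An interval this wide leaves room for shifts in either direction.

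**Figure D2:**
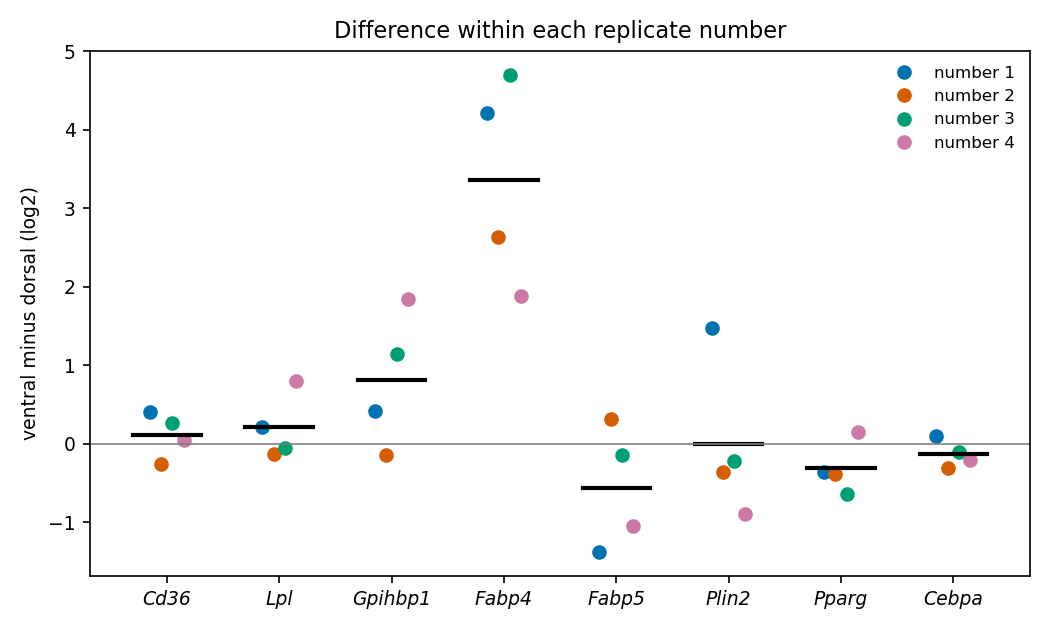
Ventral minus dorsal difference (log2, vertical axis) of each measured member within replicate numbers 1 to 4 (coloured points), with the mean as a black bar. Fabp4 lies between 1.89 and 4.70 in all 4 numbers. The other 7 members have points on both sides of 0.

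The 2 transcription factors lay under the array median on every array. Pparg ran from 2.65 to 3.34 in dorsal and from 2.49 to 2.84 in ventral tissue, a mean difference of -0.30 with 3 of 4 replicate numbers lower. Cebpa ran from 2.61 to 3.08 in dorsal and from 2.60 to 2.88 in ventral tissue, a mean difference of -0.13. For both genes the groups overlapped. With no filter, limma gave adjusted p-values of 0.825 for Pparg and 0.902 for Cebpa, and of 0.905 for Lpl and 0.936 for Cd36. A low array value does not show that a gene is off.

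Promoter windows from RefSeq (GRCm38.p6), from 250 bases before to 50 after a start site, were found for 5 of the 9 members, Cd36, Cebpa, Fabp3, Plin2 and Pparg, with 7 windows in all. One window each of Pparg and Plin2 is printed, since Pparg is the factor under the array median and Plin2 the storage gene measured above it in both tissues. In the Pparg window at chr6:115421816-115422115 (plus strand), capitals mark TTGCNNAA, a form of the C/EBP motif, searched on both strands. It occurs at positions 36 and 235, counted from the window's first base, in 1 of the 7 windows and in 10.8% of all 32851 windows. In the Plin2 window at chr4:86670010-86670309 (minus strand), capitals mark AGGTCA, read there on the other strand, the core of the element that PPAR and RXR bind as a pair. That core is in 4 of the 7 windows and in 16.3% of all windows. The 4 windows belong to Cd36, Plin2 and Pparg. Windows of 1 gene are counted separately, and Pparg has 3 of the 7. The full element, 2 cores in a row with 1 base between them, is in 0 of the 7 and in 0.0396% of all windows. These are matches of letters in short windows, not binding sites, and the core is contained in the full element.
Pparg: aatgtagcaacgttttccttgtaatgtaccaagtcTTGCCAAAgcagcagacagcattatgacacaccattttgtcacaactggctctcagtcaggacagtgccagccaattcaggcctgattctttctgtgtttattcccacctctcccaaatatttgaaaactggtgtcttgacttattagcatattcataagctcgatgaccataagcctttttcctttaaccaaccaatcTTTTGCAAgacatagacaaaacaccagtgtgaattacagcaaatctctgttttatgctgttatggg
Plin2: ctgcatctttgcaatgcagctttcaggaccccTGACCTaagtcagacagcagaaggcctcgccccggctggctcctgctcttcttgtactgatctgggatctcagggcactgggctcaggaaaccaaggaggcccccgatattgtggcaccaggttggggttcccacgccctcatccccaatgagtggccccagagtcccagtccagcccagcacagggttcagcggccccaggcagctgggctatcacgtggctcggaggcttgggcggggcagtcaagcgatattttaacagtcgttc

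The genes beside Fabp4 on chromosome 3 belong to the same family. In the RefSeq order, the protein-coding genes Fabp5, Pmp2 and Fabp9 lie on one side of Fabp4 and Fabp12 on the other. Pmp2, the myelin protein of this family, ranged from 2.53 to 3.12 over the 8 arrays, and Fabp9, known from the testis, from 2.51 to 2.72. Fabp12 ranged from 3.17 to 3.56. All 3 lay under the array median on every array, so no difference between the tissues can be read from them, and Fabp5 was the one of these neighbours that passed the filter.

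Among other family members, Fabp7 varied widely between arrays and Fabp1 was high on a single array. Fabp7, the brain type found in neural progenitors and glia, stood at 11.2, 5.52, 4.13 and 3.21 in dorsal and at 8.22, 4.43, 7.68 and 6.55 in ventral replicates 1 to 4. Its highest value was in dorsal replicate 1, the array with the highest mean of neural genes, a list that includes Fabp7 itself. It did not pass limma's test (difference 0.71, SE 1.08, adjusted p = 0.919). Fabp1, the liver type, was at 6.97 in dorsal replicate 4 and between 2.12 and 2.33 on the other 7 arrays. Dorsal replicate 4 was also the array with the highest liver genes, of which Fabp1 is one.

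Wider lists of fatty acid genes were split between the tissues. They hold 130 genes beside the members, of which 121 are in the table and 82 were tested. Of these 82, 42 were higher and 40 lower in ventral tissue, with a median difference of 0.017 against -0.0039 over all tested genes, of which 49.2% were higher, and limma called 0. At an unadjusted p under 0.05 there were 8 higher and 3 lower genes, where 4.08% and 4.18% of all tested genes reached that level in each direction. All ventral arrays lay above all dorsal arrays in 3 of the 82 and below them in 1 (Lipe, described below), where the shares over all tested genes were 2.01% and 2.38%.

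Among genes of uptake and activation, 4 of 10 tested genes were higher and 6 lower, with a median of -0.078. Cav1, a coat protein of membrane pits that are plentiful in endothelium, differed by 0.62 (SE 0.19, adjusted p = 0.425 in limma) and was higher in 4 of 4 replicate numbers. Dbi, which binds activated fatty acids, differed by 0.16, and the transporter Slc27a1 by -0.11. Of 8 tested genes of lipolysis in vessels and of lipoprotein uptake, 5 were higher, where 49.2% of all tested genes were, with a median of 0.14. At an unadjusted p under 0.05 in limma, 3 of the 8 were higher and 0 lower. Over all tested genes, 4.08% were higher and 4.18% lower at that level. Lmf1, which matures lipoprotein lipase, differed by 0.55 (SE 0.21), the receptor chaperone Lrpap1 by 0.56 (SE 0.20) and Apoe by 0.68 (SE 0.28), with adjusted p-values from 0.517 to 0.593 in limma.

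Genes that build lipid droplets were split evenly, 7 of 14 tested genes higher and 7 lower, with a median of -0.0059. Dgat1, which makes triglyceride, differed by -0.48 (SE 0.19, adjusted p = 0.559 in limma), G0s2, an inhibitor of lipolysis, by 0.36, and the phosphatase Lpin1 by 0.30. Of 4 tested genes of lipid breakdown, 3 were higher. Lipa, the acid lipase of lysosomes, ran from 4.49 to 5.14 in dorsal and from 5.25 to 5.71 in ventral tissue. These groups did not overlap, with a difference of 0.74 (SE 0.20, adjusted p = 0.357 in limma). Lipe, the hormone-sensitive lipase of adipocytes, ran from 3.76 to 4.40 in dorsal and from 3.11 to 3.62 in ventral tissue. All 4 ventral values lay under their array's median, so it passed the filter through the dorsal arrays alone, and its mean difference of -0.54 is a description that supports nothing. Abhd5, which activates lipolysis, differed by 0.43 with 2 of 4 replicate numbers higher.

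PPAR receptors and their partners were lower in 7 of 8 tested genes, by little, with a median of -0.087. The coactivators Ppargc1a, Ppargc1b and Med1 differed by -0.26, -0.21 and -0.14, with adjusted p-values of at least 0.678 in limma. Ppargc1a lay near the array medians, at 3.61 to 3.82 in dorsal and 3.32 to 3.72 in ventral tissue, where background limits any difference. Of the adipogenic factors, 7 of 10 tested genes were lower, with a median of -0.0077. Ebf1, an early factor of adipocytes and B cells, stood at 8.38, 7.53, 7.79 and 5.23 in dorsal and at 5.50, 4.99, 5.96 and 4.93 in ventral tissue. Dorsal replicate 4 was at the ventral level, and the difference was -1.89 (SE 0.40, adjusted p = 0.246 in limma). In the fit without a block and without dorsal replicate 4 it was -2.55 with an adjusted p of 0.0326 in limma. Klf5 differed by 0.56 and Cebpb by 0.22.

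Oxidation genes were higher in 12 of 17 tested genes, with a median of 0.046. Acaa2, the last enzyme of a mitochondrial oxidation cycle, had every ventral array above the dorsal ones, but by only 0.016 at the nearest (difference 0.76, SE 0.24, adjusted p = 0.448 in limma). Etfb, which passes electrons from this cycle on, differed by 0.40 and Acads by 0.35. Synthesis genes were higher in 6 of 10, with a median of 0.18. Acly, which supplies the building block, differed by 0.47 (SE 0.20), the elongase Elovl1 by 0.36 and the desaturase Scd2 by -0.29, with adjusted p-values from 0.61 to 0.679 in limma.

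**Figure D3:**
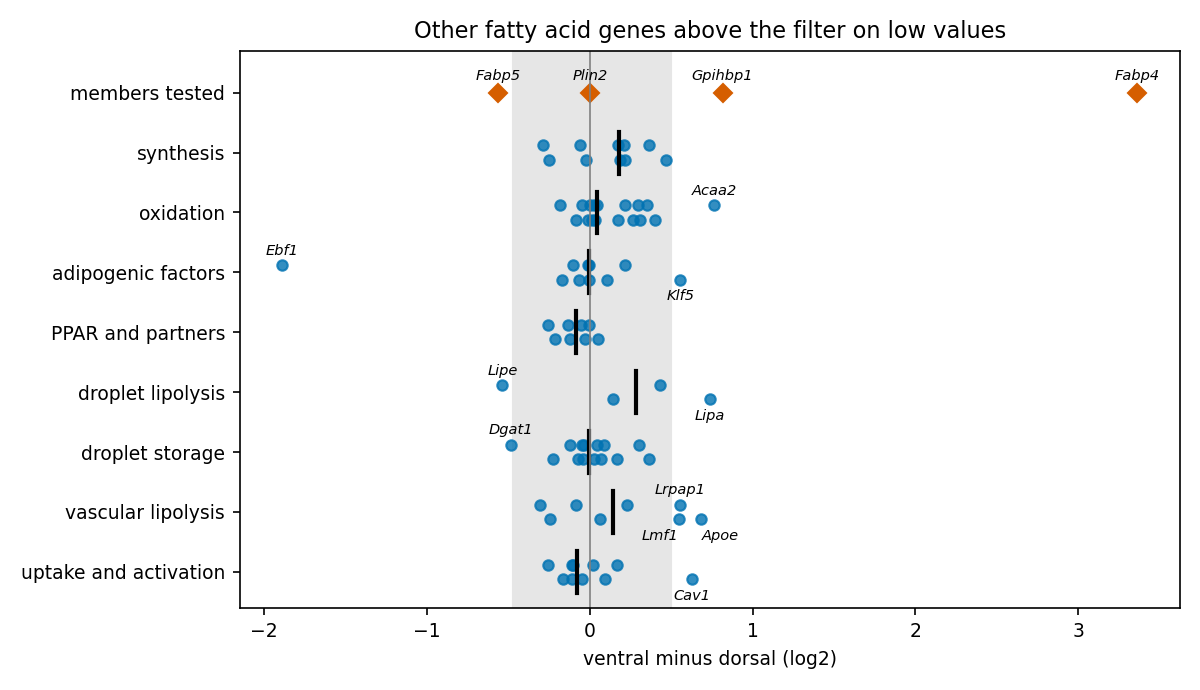
Ventral minus dorsal difference (log2, horizontal axis) of the tested genes of 8 fatty acid lists (blue points, with the list median as a black bar) and of the 4 tested members (orange). The grey band spans the 5th to 95th percentile of all tested genes, -0.47 to 0.50, and genes outside it are named. Fabp4, selected on this difference, is at 3.36, and the listed genes run from -1.89 (Ebf1) to 0.76 (Acaa2).

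Adipocytes, capillary endothelium and macrophages, which can make Fabp4, were followed by their markers. Of 12 adipocyte markers, 10 are in the table and 5 were tested, 2 higher and 3 lower, with none called by limma. At an unadjusted p under 0.05 in limma there was 1 of the 5, where 8.26% of all tested genes reached that level. That gene is Lipe, one of the lower ones, which passed the filter through the dorsal arrays alone and supports nothing. Adipoq, Lep, Cidec and Ucp1 lay under the array median on all 8 arrays, and the mean of the 10 genes was 3.36 to 3.52 in dorsal and 3.33 to 3.39 in ventral tissue. Of 16 endothelial markers, 11 of 13 tested genes were higher, where 49.2% of all tested genes were, with a median of 0.16 and 0 called by limma. At an unadjusted p under 0.05 in limma there was 1 of the 13 (7.69%), where 8.26% of all tested genes reached that level. The mean of the 16 genes was 4.15 to 5.09 in dorsal and 4.64 to 5.03 in ventral tissue, so the tissues overlapped. Dorsal replicate 4 was the lowest array for this mean. The receptor Kdr differed by 0.85 (SE 0.30, adjusted p = 0.517 in limma), Ramp2 by 0.41 and the receptor Tek by -0.62. Kdr was also lowest in dorsal replicate 4, at 3.71 against 4.84 to 5.28 in the other dorsal arrays. Tek, at 3.41 to 3.75 in ventral tissue, lay near the array medians there. For 8 genes of capillaries that take up fatty acids, 5 of 7 tested genes were higher, 2 of them at an unadjusted p under 0.05 (Cav1 and Kdr, given above) and 0 lower at that level. Over all tested genes, 4.08% were higher and 4.18% lower at that level. The mean of the 8 genes was 4.05 to 4.84 in dorsal and 4.41 to 4.78 in ventral tissue. The factors Tcf15 and Meox2 differed by 0.13 (SE 0.18) and -0.79 (SE 0.58).

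Macrophage markers were mostly higher in ventral tissue. Of 19 genes, 18 are in the table, and 14 of 15 tested genes were higher there, where 49.2% of all tested genes were, with a median of 0.58 and 0 called by limma. At an unadjusted p under 0.05, 4 of the 15 were higher and 0 lower, where 4.08% and 4.18% of all tested genes were. The mean of the 18 genes was 4.19, 4.21, 4.30 and 4.52 in dorsal and 5.04, 4.94, 4.57 and 4.53 in ventral replicates 1 to 4. Every ventral mean lay above every dorsal mean, narrowly between dorsal and ventral replicate 4. Tyrobp, an adaptor of myeloid receptors, differed by 1.38 (SE 0.22), Ctss by 0.88 and C1qb by 0.69, while Cd14, Ptprc and Itgam lay under the array median on all 8 arrays. The direction of this list was known from earlier results of these arrays and is no independent evidence, and the part of macrophages in the value of Fabp4 was not tested.

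**Figure D4:**
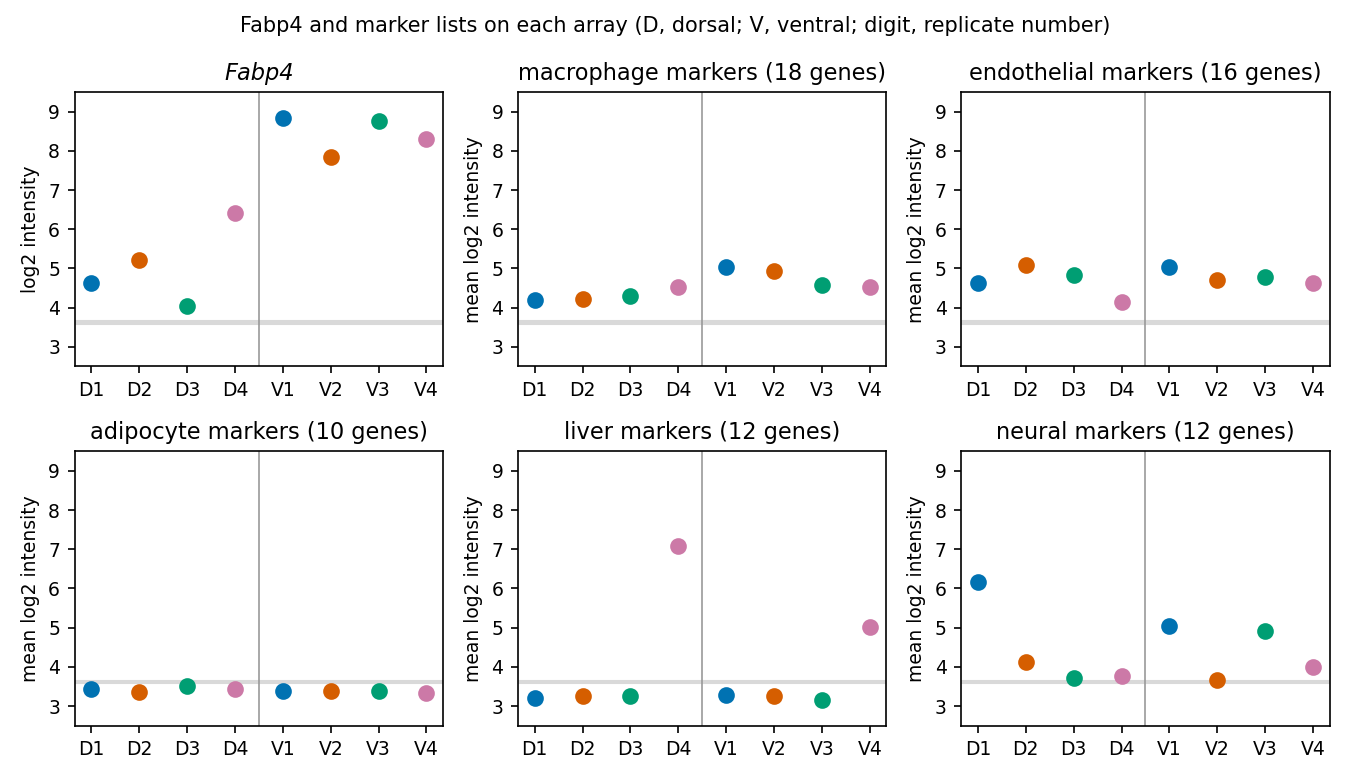
Log2 intensity of Fabp4 and mean log2 intensity of 5 marker lists (vertical axes) on the 8 arrays, D for dorsal and V for ventral with the replicate number, and a grey band for the array medians. Macrophage means run from 4.19 to 4.52 in dorsal and 4.53 to 5.04 in ventral tissue. Liver genes are high in D4 and V4. Neural genes are highest in D1, followed by V1 (5.03) and V3 (4.90).

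Genes were ranked by Pearson correlation with Fabp4 over the 8 arrays, with predicted genes left out. The coding genes most like Fabp4 were Zbtb22 (r = 0.966), Ret (0.965), Stfa1 (0.959), Rps27 (0.952), Glb1 (0.940) and Lipa (0.938). All 6 had every ventral array above every dorsal array, so these values largely restate the split between the tissues, and they are given as a description over 8 arrays that were used to choose Fabp4. Stfa1, a protease inhibitor of myeloid cells, had a dorsal mean of 4.00 ± 1.35 and a ventral mean of 6.66 ± 0.13 (SD, n = 4). Glb1, a lysosomal enzyme like Lipa, differed by 0.71 and the receptor Ret by 0.66. Rps27 encodes a ribosomal protein with many near-identical copies in the genome, so its row is uncertain. Its dorsal mean of 3.31 ± 0.15 (SD, n = 4) lay under the array medians, against a ventral mean of 3.77 ± 0.10. It thus passed the filter through the ventral arrays alone, where it is high, and its r supports nothing. Among the tested members, r with Fabp4 was 0.48 for Gpihbp1, 0.20 for Plin2 and -0.29 for Fabp5. With each array's value taken as its deviation from its tissue's mean, r was -0.44 for Gpihbp1, 0.53 for Plin2 and 0.33 for Fabp5, so the sign turned for Gpihbp1 and Fabp5.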

How the data were processed

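The deposited values are log2 intensities, 1 per Entrez gene number and array. The submitters' processing notes name Affymetrix Expression Console and RMA, a method that equalises the arrays, so differences are relative within an array. Versions and the array definition's build are not given in the sources used here. Of 25429 rows, 24675 had 1 gene symbol in the platform table, 0 had several and 754 had none. No value was normalized again.

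Genes above their array's median on at least 4 of 8 arrays were fitted with limma 3.58.1 under R 4.3.3 (lmFit and a robust eBayes with a trend). The replicate number was a fixed block, and the moderated test of ventral minus dorsal was two-sided, with Benjamini-Hochberg adjustment over 12416 genes at a threshold of 0.05. The script was tested on simulated data. The block was kept since each embryo gave both tissues, per the labels, which do not say that a number is 1 embryo. Deviations of same-numbered arrays correlated at r = 0.022 to 0.12, against -0.13 to 0.10 for different numbers. If numbers do not mark embryos, p-values measure only the spread between these samples.

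The members and lists were chosen with earlier results of these data known. Named were the members, the cluster neighbours, up to 3 tested genes of smallest p per list, and markers where a level was needed. The 6 coding genes most correlated with Fabp4, with predicted genes left out, were also named. Alternatives changed the block, filter, moderation, array weights, scaling and the arrays included. No array batch was fitted, as slides and scans are not given in the sources used here.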

Additional observations from a re-analysis of the deposited data

How the results depend on the processing

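The number of members called beside Fabp4 was 0 in the main fit and under all 20 alternatives, and Fabp4 differed by 2.91 to 3.85. Over all tested genes limma called 0 with the replicate block, 4 with no replicate block, 4 with a random block, 10 with the stricter filter, and 13 with dorsal replicates 1 and 4 left out, an alternative chosen after seeing the data. Single arrays, and dorsal replicates 1 and 4 together, were left out in fits without the block, where all arrays gave 4 genes. Replicate numbers were left out with the block kept. Leaving out arrays gave 0 to 20 genes, with 20 without ventral replicate 1, 9 without replicate number 1, 8 without dorsal replicate 1 and 9 without dorsal replicate 4. Of the other fatty acid genes, 0 to 1 were called with arrays left out (Ebf1, without dorsal replicate 4). The block changed no member's call. Plin2 turned from 0.0034 to -0.012 with array weights and to -0.21 without dorsal replicates 1 and 4, and ran from -0.49 to 0.30 with arrays left out, with -0.49 without number 1, -0.33 without dorsal replicate 1 and -0.16 without ventral replicate 1. Fabp5 turned to 0.015 without dorsal replicates 1 and 4 and ran from -0.92 to -0.24 with single arrays or numbers left out. The cause of these turns was not tested. Gpihbp1 ran from 0.47 to 1.14. Values near the array medians limit what can be seen of Cd36, Lpl, Pparg and Cebpa.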

Other observations

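Other cell types showed their own differences. Of 10 tested smooth muscle genes, 10 were higher in ventral tissue, where 49.2% of all tested genes were, with a median of 0.44. The list mean was 4.58 to 4.91 in dorsal and 4.85 to 5.76 in ventral tissue. Actg2, an actin of visceral smooth muscle, differed by 1.99 (SE 0.32) and Cnn1 by 2.28 (SE 0.63). Of 9 tested genes listed for the mesothelium, the lining of the body cavity, 7 were higher, where 49.2% of all tested genes were. Among them were Tcf21 (3.30, SE 0.38), whose dorsal mean of 3.11 lay under the array medians, and Krt7 (0.97, SE 0.24). The mean of the mesothelium list overlapped between the tissues, at 3.67 to 5.18 in dorsal and 4.39 to 5.23 in ventral tissue, with the highest dorsal value in replicate 4. Striated muscle genes were lower in 8 of 9, where 49.2% of all tested genes were higher, with Tnnc1 at -0.81 (SE 0.31). None of these genes passed limma's test in the blocked fit. Of 9 genes of the adrenal cortex, a tissue that handles much lipid, 5 lay under the array median on all 8 arrays. The 3 tested genes, Nr5a1, Fdx1 and Star, differed by -0.031, 0.016 and -0.0067. Nr5a1 (3.56 to 3.89) and Star (3.13 to 3.74) lay near the array medians, where background limits any difference. The mean of the 9 genes was 3.63 in ventral replicate 3 against 3.11 to 3.24 elsewhere.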
